A study of Saccharomyces cerevisiae with 16 samples.

Results

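Control cells of *Saccharomyces cerevisiae* were followed into the late phase of CaCl2 stress by comparing 4 of 16 RNA-seq libraries. These were the 2 libraries taken 60 min and the 2 taken 30 min after CaCl2 was added to cells pre-treated with ET buffer, the solvent control for the drug FK506. They were chosen by their labels alone, and the comparison was made over 6206 genes. All cells were of strain YJB622, a *MATa* haploid of the BY4741 background with the alleles *ura3Δ0 leu2Δ0 his3Δ0 met15Δ0*, *crz1Δ::KanMx*, *hog1Δ::LEU2* and *Hcm1-3HA-HIS3*. Every group therefore lacked both Crz1 and Hog1. Cells with both proteins were not analysed here, so the effect of the deletions cannot be told apart from the rest of the response. Cells grew in synthetic medium with ammonium chloride, were pre-treated for 15 min and then received 200 mM CaCl2. The matched FK506 groups, at 30 and 60 min and with 1 μg/ml of the drug, differed from the ET groups in pre-treatment only. Each group held 2 libraries from duplicate time courses.

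Calcineurin (CN) is a phosphatase that calcium and calmodulin switch on, and FK506 blocks it through an immunophilin. In budding yeast its main transcription factor (TF) is Crz1, whereas Hog1 is the MAP kinase of the osmotic response, so CN signalling in these cells had to act through other proteins. Yeast under stress typically shut down the genes for ribosomes and switch on a general stress program led by the TFs Msn2 and Msn4, and both programs relax as cells adapt. The late phase is of interest because, in cells with Hog1, the paper reports that control cells stayed arrested whereas FK506-treated cells resumed cycling. For cells without Hog1, it reports that the cell cycle distribution was not significantly changed at the start of the late phase. Within that phase it reports a modest CN-dependent fall in the fraction of cells in S phase. From this the paper proposes that CN upholds the arrest at later times in a way that needs Hog1 only in part. Whether the ET cells described here were arrested was not tested.

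Libraries held 11221758 to 11970166 counts each, and the 4 libraries of the comparison held 11269470 to 11848993. The deleted gene *HOG1* had 0 counts in each of the 16 libraries, where up to 3 counts would go undetected, and *CRZ1* had 2 counts in total. The most abundant feature, the signal recognition particle RNA *SCR1*, took 6.34% and 6.24% of the counts at 30 min and 8.67% and 7.47% at 60 min. It was called higher at 60 min by 0.32 (SE 0.05, adjusted p 0.00033). The actin gene *ACT1* had a log2 change of 0.04 (adjusted p 0.55). The MATa mating type of the strain was visible in the data. The 7 MATa-specific genes, not scaled to gene length, summed to 3220.5 and 3378 CPM at 30 min and 4535 and 4406 CPM at 60 min, against 97.6 and 97.2 CPM at 30 min and 129 and 118 CPM at 60 min for 4 MATalpha-specific genes.

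Between 30 and 60 min in ET cells, ribosomal protein mRNAs went on falling, whereas mating genes, several genes of cell wall synthesis and genes of ergosterol synthesis rose. Of the 6206 genes tested with limma voom, 1272 differed between 30 and 60 min at an adjusted p under 0.05, which is 20.5% of the genes. Of these, 606 (9.76%) were higher at 60 min and 666 (10.7%) were lower. The larger changes leaned downwards. Among the called genes, 156 (2.51% of those tested) had a log2 change of 1 or more in size, 30 of them higher and 126 lower. The median log2 change over all genes was 0.00, and the changes of replicate 1 and replicate 2 had a Pearson r of 0.67 across genes, which are not independent replicates. Levels are given as CPM (counts scaled to a TMM-adjusted total of 1e6 per library), so each value is a share of the RNA in its library, and fewer cells that express a gene cannot be told apart from less RNA per cell. Without TMM scaling, on raw totals, the split was 748 higher and 524 lower. Leaving out replicate 1 at 30 min lowered the number of calls to 742.

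Depth set what could be seen. Among 860 genes with a mean under 100 counts over the 4 libraries, the median standard error (SE) of the log2 change was 0.34 and 25 genes (2.91%) were called. The values were 0.11 and 453 of 3243 genes (14.0%) at 100 to 1000 counts. Above that, they were 0.066 and 794 of 2103 genes (37.8%). A missing call on a weakly expressed gene does not show that its level stayed constant.

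**Figure D1:**
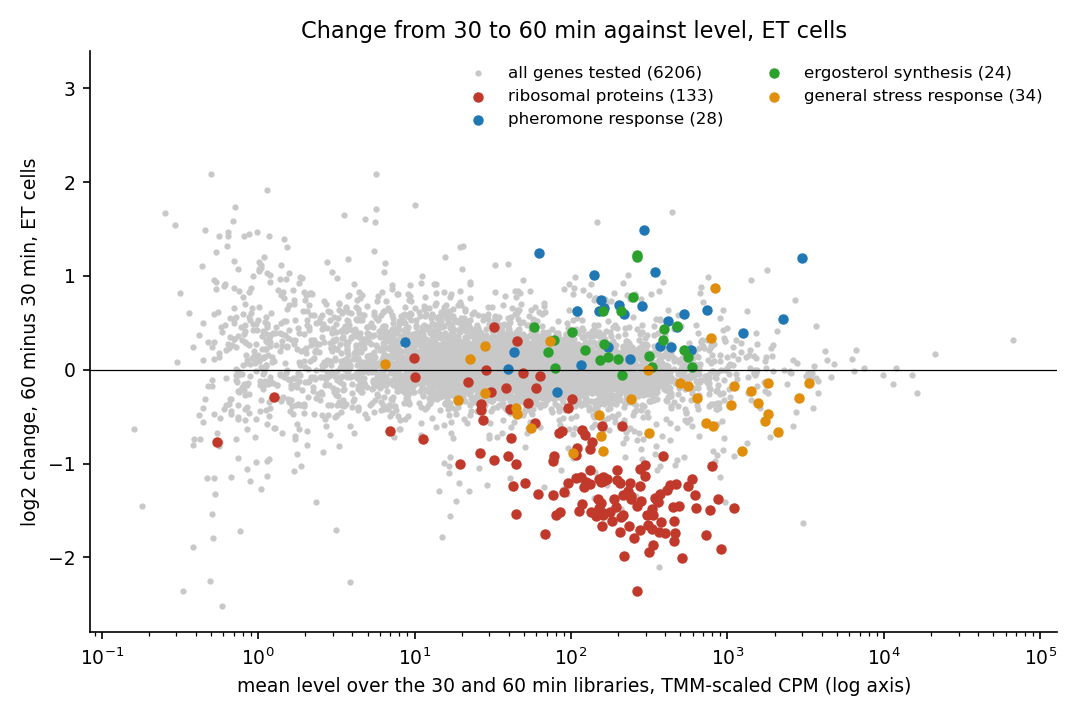
Log2 change from 30 to 60 min in ET cells (vertical axis) against the mean level over the 4 libraries in CPM (horizontal log axis) for the 6206 genes tested, with members of the lists described in the text in colour. Ribosomal protein genes form a cloud below 0 with a median of -1.24, and pheromone response genes lie mostly above 0 with a median of 0.56.

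Of the gene lists described, the cytoplasmic ribosomal proteins, which build the ribosome around its RNA, had the lowest median. Of 133 genes tested, 118 were called lower and 1 higher, with a median log2 change of -1.24 against 0.00 over all genes. The median was -1.32 in replicate 1 and -1.14 in replicate 2. Together these mRNAs summed to 44783 and 39751 CPM at 30 min and 16469 and 16182 CPM at 60 min, or 4.70% and 4.21% of all counts at 30 min and 1.74% and 1.78% at 60 min. Both libraries at 60 min lay below both at 30 min, and the same genes had summed to 139929 and 134410.0 CPM at 0 min. Small and large subunit genes had similar medians. In the small subunit 53 of 56 genes were called lower, with a median of -1.23. In the large subunit 65 of 77 were called lower and 1 higher, with a median of -1.24.

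*RPL9A* (YGL147C, chromosome VII, 227754 to 228329), a large subunit protein gene, had the lowest change among the named genes. Its level was 472 and 416 CPM at 30 min and 93.5 and 79.1 CPM at 60 min, a log2 change of -2.36 (SE 0.06, adjusted p 8.8e-14). *RPS3* (YNL178W, chromosome XIV, 302680 to 303402), which encodes a small subunit protein near the mRNA entry tunnel, had 889 and 755 CPM at 30 min and 195 and 212 CPM at 60 min and a log2 change of -2.01 (SE 0.07, adjusted p 4.7e-13). *RPL5* (YPL131W, chromosome XVI, 303121 to 304014), whose protein binds the 5S ribosomal RNA, had 1514 and 1349 CPM at 30 min and 387 and 374 CPM at 60 min and a log2 change of -1.91 (SE 0.05, adjusted p 8.8e-14). In each of the 3 genes the groups did not overlap. Here and below, this adds no support for genes that were picked by the size of the same change. *RPL21A*, *RPL24A*, *RPS7A*, *RPS0B*, *RPL19A*, *RPS1B*, *RPS17B*, *RPL32*, *RPP2B* and *RPL25* were the other ribosomal protein genes among the 15 lowest, with log2 changes between -1.99 (*RPL21A*) and -1.73 (*RPL25*). *RPL18B* was the exception that rose, at 0.30 (SE 0.08, adjusted p 0.016). The call of *RPL18B* was lost without replicate 1 at 30 min or replicate 1 at 60 min (log2 0.25 to 0.35 over the 4 fits that each leave out 1 library, adjusted p up to 0.14).

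Many ribosomal protein genes come as duplicate pairs whose copies make nearly the same protein, and the copies did not always move together. Of 56 pairs with both copies tested, 44 had both copies called lower. The median size of the difference between copies was 0.45 on the log2 scale, and in 10 pairs it was at least 1. *RPL9A* fell by 2.36 on the log2 scale, whereas *RPL9B* had a value of -0.07 (adjusted p 0.68). *RPS7A* had a log2 change of -1.87, against -0.31 for *RPS7B*. *RPS9A*, at 0.46 (adjusted p 0.095), and *RPS9B*, at -1.70, also went apart. The difference between copies was not tested, and these pairs were picked after their values were seen. Copies share sequence, so a read can fit both, and among 101 ribosomal protein genes with under 10% of their 50-base windows repeated elsewhere in the genome 92 were called lower and 1 higher.

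Rap1 is the TF that marks most ribosomal protein promoters, and 300-base windows from 400 to 101 bases before the start codon were searched for the core CCCATACA on both strands. It was found in 19 of 133 ribosomal protein windows (14.3%) and in 1.22% of all 5744 windows. Among the 119 windows of genes called lower with a log2 change of 1 or more in size the share was 15.1%. The windows of the pair of called genes with a match that had the lowest log2 changes, *RPS17B* (chrIV:1355654-1355953, minus strand) and *RPS22A* (chrX:75403-75702, minus strand), are shown from the RefSeq R64 genome, 5′ to 3′ on the gene's strand, with the core in capitals. *RPS17B* changed by -1.75 and *RPS22A* by -1.55. A match is a description of the letters and says nothing of binding.
RPS17B: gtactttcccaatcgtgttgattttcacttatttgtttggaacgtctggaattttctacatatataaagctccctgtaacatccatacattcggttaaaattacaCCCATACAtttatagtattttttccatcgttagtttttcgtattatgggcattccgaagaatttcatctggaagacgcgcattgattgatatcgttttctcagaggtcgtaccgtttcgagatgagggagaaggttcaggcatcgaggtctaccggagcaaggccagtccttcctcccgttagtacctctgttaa
RPS22A: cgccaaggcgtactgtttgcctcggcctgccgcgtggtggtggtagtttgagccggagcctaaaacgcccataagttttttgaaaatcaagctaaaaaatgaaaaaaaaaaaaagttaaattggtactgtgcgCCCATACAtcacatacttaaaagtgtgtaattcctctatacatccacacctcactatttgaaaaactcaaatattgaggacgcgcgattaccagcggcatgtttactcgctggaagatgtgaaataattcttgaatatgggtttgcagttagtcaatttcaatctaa

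Genes that work with the ribosome fell with it in part. Of 34 translation factor genes 15 were called lower and 2 higher, with a median of -0.23. *YEF3* (YLR249W, chromosome XII, 636780 to 639914), the fungal elongation factor 3, had 4919.9 and 4247 CPM at 30 min and 1448 and 1498 CPM at 60 min and a log2 change of -1.63 (SE 0.06, adjusted p 1e-12). *ANB1* (YJR047C, chromosome X, 524908 to 525381), the copy of translation factor eIF5A that is used at low oxygen, had 22.9 and 23.4 CPM at 30 min and 6.25 and 7.14 CPM at 60 min, a log2 change of -1.79 (SE 0.16, adjusted p 1.2e-07). Levels at 60 min lay below those at 30 min in both genes. *SUI1*, a start codon recognition factor, and *CAM1*, an elongation factor 1 subunit, rose by 0.38 and 0.23. The 2 calls higher became 1 without replicate 1 at 30 min or replicate 2 at 60 min and under a fit with no replicate block. The call of *SUI1* was lost without replicate 1 at 30 min or replicate 2 at 60 min (log2 0.17 to 0.58, adjusted p up to 0.4) and under a fit with no replicate block (adjusted p up to 0.067).

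*SSB1* (YDL229W, chromosome IV, 44065 to 45906), an Hsp70 chaperone that sits on the ribosome, fell with the ribosomal proteins. It had 645 and 544 CPM at 30 min and 138 and 138 CPM at 60 min and a log2 change of -2.10 (SE 0.07, adjusted p 4.7e-13). Of its 50-base windows 43.2% occur elsewhere, so reads may be shared with its near-identical copy *SSB2* and the value is uncertain. Genes for mitochondrial ribosomal proteins changed less. Of 75, 22 were called lower and 0 higher, with a median of -0.20. *MRPS8*, a small subunit member, was lowest of the called ones at -0.48 (SE 0.12, adjusted p 0.007). That count was 9 without replicate 1 at 30 min, 10 without replicate 2 at 30 min, 12 without replicate 1 at 60 min, 11 without replicate 2 at 60 min and 14 with raw library totals. The call of *MRPS8* was lost without replicate 2 at 60 min (log2 -0.57 to -0.40, adjusted p up to 0.082).

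The factors that assemble ribosomes in the nucleolus did not follow the ribosomal proteins in this interval, but they had already fallen further before it. From 0 to 30 min the median log2 changes were -3.07 (small subunit processome), -3.24 (large subunit assembly factors) and -1.80 (ribosomal proteins). From 0 to 60 min they were -2.69, -2.86 and -3.06 in the same order. In the small subunit processome 2 of 41 tested genes were called higher (4.88%, against 9.76% of all genes) and 1 lower, with a median of 0.34. Among large subunit assembly factors 5 of 60 tested genes were called higher (8.33%) and 1 lower, with a median of 0.37. Neither share called higher exceeded that of all genes. The large subunit median was 0.19 in replicate 1 and 0.53 in replicate 2. Summed levels of that list went from 1374 to 1236 CPM in replicate 1 and from 1308 to 1437 CPM in replicate 2, in opposite directions. Processome sums went from 1104 to 1185 CPM and from 1119 to 1389 CPM. *DBP9*, a helicase of large subunit assembly, rose by 0.92 (SE 0.25, adjusted p 0.014), and *NOP4*, a nucleolar protein of the same path, by 0.90 (SE 0.27, adjusted p 0.026). *UTP20*, a processome component, rose by 0.61 (SE 0.14, adjusted p 0.0035). *REA1*, also known as MDN1, encodes the large AAA ATPase that strips factors from the pre-60S particle and fell by 0.96 on the log2 scale (adjusted p 5.1e-06). The call of *DBP9* was lost without replicate 1 at 30 min, replicate 2 at 30 min or replicate 2 at 60 min (log2 0.61 to 1.22, adjusted p up to 0.18). *NOP4* also lost it without any 1 of the 4 libraries (0.65 to 1.17, up to 0.25). *UTP20* likewise lost it without replicate 2 at 60 min (0.51 to 0.69, up to 0.053).

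*BRX1*, a large subunit factor, was at 5.32 and 5.82 CPM at 30 min and 9.30 and 10.2 CPM at 60 min, and its log2 change of 0.80 (SE 0.38, adjusted p 0.16) missed the threshold. *NSR1*, the yeast nucleolin, was at 8.71 and 6.06 CPM at 30 min and 8.82 and 11.3 CPM at 60 min, with a log2 change of 0.43 (SE 0.30, adjusted p 0.34). The count of large subunit factors called higher was 0 without replicate 1 at 30 min, 1 without replicate 2 at 30 min, 9 without replicate 1 at 60 min and 0 without replicate 2 at 60 min. For processome genes, the 2 calls higher became 1 without replicate 1 at 30 min or replicate 2 at 30 min, 5 without replicate 1 at 60 min and 0 without replicate 2 at 60 min. Among regulators of ribosome production, *STB3*, a repressor that binds promoters of assembly genes, rose by 0.76 (SE 0.07, adjusted p 1.7e-07). *DOT6*, another repressor of these genes, changed by -0.35 (SE 0.08, adjusted p 0.0052). *SFP1*, an activator of ribosomal protein genes, was at 0.13 (SE 0.07, adjusted p 0.2). The call of *DOT6* was lost without replicate 1 at 30 min or replicate 2 at 60 min (log2 -0.48 to -0.22, adjusted p up to 0.12).

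**Figure D2:**
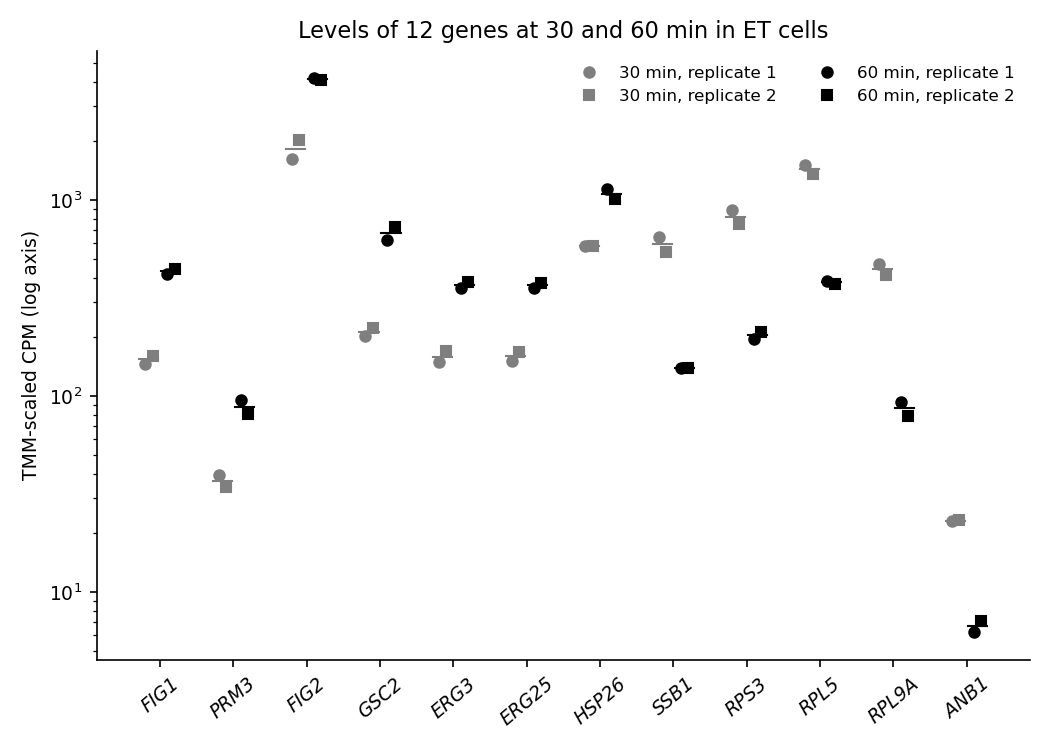
Levels in CPM (vertical log axis) of 12 named genes at 30 and 60 min in ET cells, with 1 point per library and a short line at the mean of the 2 libraries. FIG1, PRM3, FIG2, GSC2, ERG3, ERG25 and HSP26 are higher at 60 min and SSB1, RPS3, RPL5, RPL9A and ANB1 lower, with no overlap between the times. The genes were picked from those called with large changes, so the lack of overlap adds no support.

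Genes of amino acid and purine synthesis fell in part. Of 49 amino acid synthesis genes 26 were called lower and 5 higher, with a median of -0.25. *ARO4* (YBR249C, chromosome II, 716882 to 717994), an entry enzyme of aromatic amino acid synthesis, had 316 and 296 CPM at 30 min and 118 and 101 CPM at 60 min, a log2 change of -1.49 (SE 0.06, adjusted p 5.4e-12). *ARG1*, the argininosuccinate synthetase, went from 227 ± 7.18 to 104 ± 2.19 CPM (SD, n = 2), and its log2 change was -1.13 (SE 0.06, adjusted p 2.4e-10). Both were lower at 60 min in each replicate. *ARG3* and *CPA1*, which also serve arginine synthesis, rose by 0.44 and 0.37. *GCN4*, the TF that activates this pathway, was at 0.09 (SE 0.06, adjusted p 0.33) at the mRNA level, where its control is known to be mostly translational. The 5 calls higher became 3 without replicate 1 at 30 min, 2 without replicate 2 at 30 min, 2 without replicate 2 at 60 min and 8 with raw library totals. The call of *ARG3* was lost without replicate 1 at 30 min, replicate 2 at 30 min or replicate 2 at 60 min (log2 0.22 to 0.64, adjusted p up to 0.36).

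In purine synthesis 1 of 16 tested genes were called higher and 6 lower, with a median of -0.11. *GUA1*, the GMP synthase, had 222 and 180.4 CPM at 30 min and 76.0 and 79.5 CPM at 60 min and a log2 change of -1.36 (SE 0.10, adjusted p 1.7e-08). *IMD3*, an IMP dehydrogenase of the same guanine branch, changed by -1.09 (SE 0.06, adjusted p 3e-10), but it has close copies and 16.6% of its windows are repeated. *ADE1*, of the common path, rose by 0.53 (SE 0.07, adjusted p 4.8e-05).

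Genes of sugar uptake fell in part and those of glycolysis split. Of 18 hexose transport and sensing genes 7 were called lower and 0 higher. *GAL2*, the galactose permease, changed by -1.29 (SE 0.16, adjusted p 1.1e-05), and *HXT4*, a high affinity glucose transporter, by -0.85 (SE 0.08, adjusted p 4.3e-07). In glycolysis and fermentation 7 of 20 tested genes were called higher and 4 lower, with a median of 0.03. The 4 calls lower became 2 under scaling without the 10 genes with the most counts or a fit with no replicate block. *TDH1*, a minor glyceraldehyde-3-phosphate dehydrogenase, rose from 960.1 ± 57.0 to 1866 ± 210.2 CPM (SD, n = 2), by 0.96 (SE 0.08, adjusted p 3e-08), with 15.7% of its windows repeated in its copies. *PDC6*, a minor pyruvate decarboxylase, rose by 0.90 (SE 0.20, adjusted p 0.0039). Among respiratory genes, oxidative phosphorylation had 4 of 38 called higher (10.5%, against 9.76% of all genes) and 1 lower. The 4 calls higher became 2 without replicate 1 at 60 min or replicate 2 at 60 min and under a fit with no replicate block and 1 without replicate 1 at 30 min. *CYC7*, the minor cytochrome c isoform, was at -1.05 (SE 0.19, adjusted p 0.00046). The call of *PDC6* was lost without replicate 2 at 30 min (log2 0.56 to 1.24, adjusted p up to 0.11).

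**Figure D3:**
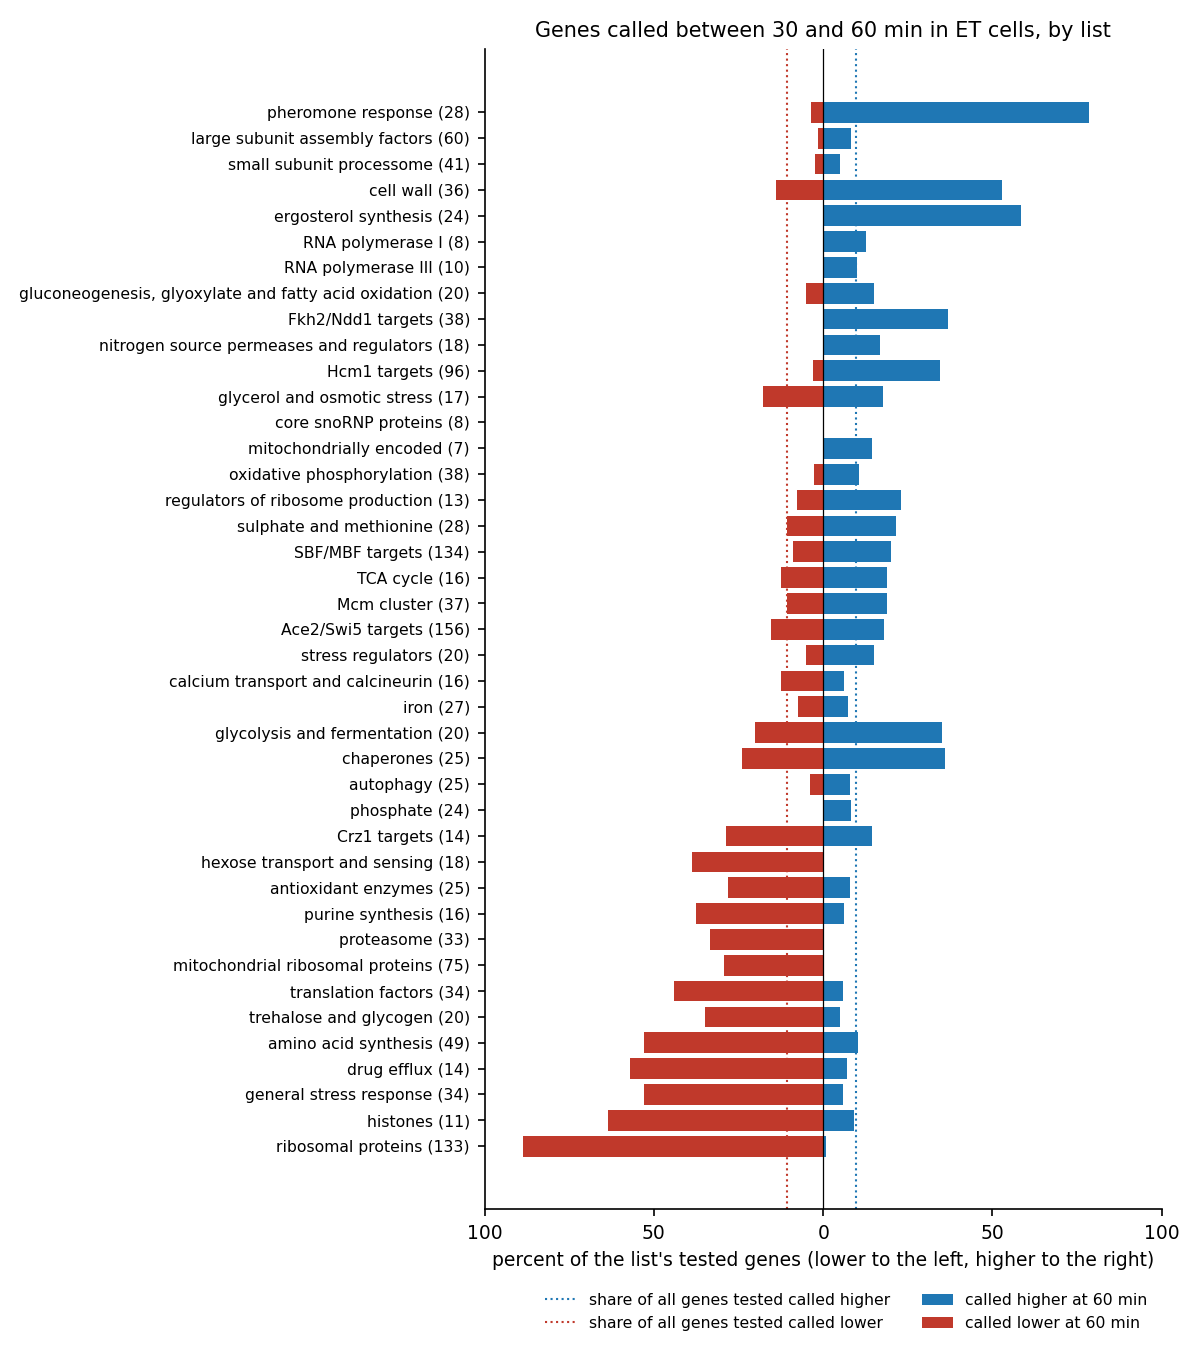
Percent of the tested members of each gene list shown, called higher (to the right) and lower (to the left) at 60 min than at 30 min in ET cells, with dotted lines at the share of all genes called in that direction (9.76% and 10.7%). Marker lists of cell identity are not shown. Of the lists shown, ribosomal proteins reach the largest share of calls lower, and the pheromone response list the largest share of calls higher.

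Mating genes had the highest list median of those described. In MATa cells, pheromone from MATalpha cells acts through the receptor Ste2, a G protein and the kinases Ste11, Ste7 and Fus3 on the TF Ste12, which binds the pheromone response element. No pheromone treatment is described for these cells. Of 28 genes of this pathway and its targets, 22 were called higher and 1 lower, and the median log2 change was 0.56. It was 0.66 in replicate 1 and 0.48 in replicate 2. The list summed to 9449 and 10486 CPM at 30 min and 15973 and 15610.3 CPM at 60 min, without overlap. The kinase gene *STE11* was the member called lower, at -0.24 (SE 0.07, adjusted p 0.015). The call of *STE11* was lost without replicate 1 at 30 min or replicate 2 at 60 min (log2 -0.29 to -0.20, adjusted p up to 0.13) and under DESeq2 (adjusted p up to 0.063).

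The members described with the highest changes were targets of the pathway that act in mating itself. *FIG1* (YBR040W, chromosome II, 316968 to 317864), a membrane protein of mating cells, had 146 and 161 CPM at 30 min and 416 and 446 CPM at 60 min. Its log2 change was 1.49 (SE 0.09, adjusted p 4.4e-10). *PRM3* (YPL192C, chromosome XVI, 182655 to 183056), which acts in fusion of the nuclei, had 39.4 and 34.5 CPM at 30 min and 95.1 and 80.6 CPM at 60 min, a log2 change of 1.25 (SE 0.08, adjusted p 3.5e-09). *FIG2* (YCR089W, chromosome III, 267434 to 272263), a mating adhesin of the cell wall, had 1613 and 2028 CPM at 30 min and 4162 and 4098 CPM at 60 min and changed by 1.19 (SE 0.07, adjusted p 5.2e-10). In all 3 genes both libraries at 60 min exceeded both at 30 min, and the gap was wider than the distance between replicates. At the other end of the called members, *SST2*, which turns the G protein off, rose by 0.21 (SE 0.05, adjusted p 0.0067). The call of *SST2* was lost without replicate 1 at 30 min (log2 0.18 to 0.23, adjusted p up to 0.08).

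The 7 MATa-specific genes, used here to check the mating type, were all called higher, with a median of 0.43. *ASG7*, a regulator of the G protein after mating, rose from 153 ± 2.26 to 309 ± 9.97 CPM (SD, n = 2), by 1.01 (SE 0.10, adjusted p 9.8e-07). *AGA2*, the binding subunit of the a-agglutinin, rose by 0.94 (SE 0.10, adjusted p 1.2e-06). *STE6*, the exporter of a-factor, and *BAR1*, the protease that degrades alpha-factor, rose by 0.21 and 0.32. Of the 4 MATalpha-specific genes *STE3* and *SAG1* were called higher, by 0.36 and 0.36, at levels from 33.3 ± 0.435 to 42.9 ± 4.38 CPM (SD, n = 2) for *STE3*. None of the 4 MATalpha-specific genes was at 0 counts. Of 14 genes of meiosis and sporulation, *SPS1* alone was called, at 0.79 (SE 0.21, adjusted p 0.013). The part of these marker genes in the changes of other lists was not tested. The call of *STE3* was lost without replicate 1 at 30 min or replicate 1 at 60 min (log2 0.26 to 0.45, adjusted p up to 0.19). *SPS1* also lost it without replicate 1 at 30 min or replicate 2 at 60 min (0.43 to 1.13, up to 0.3).

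The pheromone response element was searched as TGAAACA on both strands in the same 300-base windows. It was in 18 of 28 windows of the pheromone list (64.3%) and in 6 of 7 of the MATa-specific list (85.7%), against 7.28% of all windows. Of genes called higher 13.7% had it, and of genes called lower 4.92%. Among 27 genes with 2 or more matches, 13 (48.1%) were called higher and 1 lower. Among 391 genes with 1 match, 67 (17.1%) were called higher. The windows of *PRM3* (chrXVI:183157-183456, minus strand), *FIG2* (chrIII:267034-267333, plus strand) and *FUS2* (chrXIII:736526-736825, plus strand), the called pheromone genes with a match that had the highest changes, carry the element in capitals on either strand. *FUS2*, which acts in cell fusion, changed by 1.04 (SE 0.07, adjusted p 4.5e-09). The window of *FIG1*, the member of the pheromone list with the highest change, held no match.
PRM3: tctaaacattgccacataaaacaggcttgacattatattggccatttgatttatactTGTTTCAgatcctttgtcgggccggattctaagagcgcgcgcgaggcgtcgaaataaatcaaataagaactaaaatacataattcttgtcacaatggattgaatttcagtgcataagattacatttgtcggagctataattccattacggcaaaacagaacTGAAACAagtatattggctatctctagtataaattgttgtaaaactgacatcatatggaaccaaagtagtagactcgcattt
FIG2: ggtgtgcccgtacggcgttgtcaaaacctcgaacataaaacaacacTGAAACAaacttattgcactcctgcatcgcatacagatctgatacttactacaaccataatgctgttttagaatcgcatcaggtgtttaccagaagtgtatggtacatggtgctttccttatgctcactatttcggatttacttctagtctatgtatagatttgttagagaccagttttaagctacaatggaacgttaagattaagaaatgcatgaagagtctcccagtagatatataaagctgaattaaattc
FUS2: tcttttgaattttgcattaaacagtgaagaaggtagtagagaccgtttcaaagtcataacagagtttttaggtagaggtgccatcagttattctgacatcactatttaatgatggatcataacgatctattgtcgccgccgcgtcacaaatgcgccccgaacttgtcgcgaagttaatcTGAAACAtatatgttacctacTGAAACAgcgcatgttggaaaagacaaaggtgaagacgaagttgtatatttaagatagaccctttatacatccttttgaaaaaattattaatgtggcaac

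Cell wall genes rose more often than they fell. Of 36 genes 19 were called higher and 5 lower, with a median of 0.25. The list summed to 20136 and 20495 CPM at 30 min and 23490 and 23730 CPM at 60 min, against 26248 and 26112 CPM at 0 min. *GSC2* (YGR032W, chromosome VII, 548264 to 553951), a catalytic subunit of the glucan synthase that is induced under stress, had 201 and 221 CPM at 30 min and 627 and 729.8 CPM at 60 min and a log2 change of 1.68 (SE 0.08, adjusted p 1.8e-11). The level at 60 min was 3.21-fold that at 30 min, and the groups did not overlap. *GSC2* is also a known Crz1 target, but these cells lack Crz1. *DAN1*, a mannoprotein of cells without oxygen, rose by 1.26 (SE 0.23, adjusted p 0.00061). *PIR3* and *CWP1*, which encode structural wall proteins, changed by -1.29 (SE 0.22, adjusted p 0.00029) and -0.94 (SE 0.07, adjusted p 2.8e-08).

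Known Crz1 targets did not move as a group. Of 14 genes, *GSC2* included, 2 were called higher and 4 lower. The 4 calls lower became 2 without replicate 1 at 30 min or replicate 1 at 60 min and under raw library totals. Besides *GSC2*, *PUN1*, a membrane protein of stressed cells, rose by 0.61 (SE 0.10, adjusted p 0.00021). *HXT2*, a glucose transporter, and *CMK2*, a calmodulin-dependent kinase, changed by -0.68 (SE 0.10, adjusted p 0.0001) and -0.38 (SE 0.08, adjusted p 0.0018). *PMC1*, the vacuolar calcium pump, changed by -0.18 (SE 0.06, adjusted p 0.029) from 379.9 ± 9.94 to 335 ± 8.20 CPM (SD, n = 2). *CNA1*, a catalytic subunit of CN that is not on this list, rose by 0.27 (SE 0.06, adjusted p 0.0053). The call of *PMC1* was lost without any 1 of the 4 libraries (log2 -0.22 to -0.16, adjusted p up to 0.17) and under DESeq2 or raw library totals (adjusted p up to 0.077). *CNA1* also lost it without replicate 1 at 30 min or replicate 2 at 60 min (0.23 to 0.30, up to 0.069).

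Ergosterol is the sterol of fungal membranes, and of the 24 genes of its synthesis 14 were called higher and 0 lower, with a median of 0.25. The list summed to 5310 and 5564 CPM at 30 min and 6662 and 7007 CPM at 60 min. It had stood at 6837 and 6897 CPM at 0 min, and the median log2 change from 0 to 60 min was 0.07. The members with the highest changes act late in the path. *ERG3* (YLR056W, chromosome XII, 253861 to 254958), the C-5 sterol desaturase, had 148 and 169 CPM at 30 min and 356 and 382 CPM at 60 min, a log2 change of 1.22 (SE 0.06, adjusted p 6.5e-11). *ERG25* (YGR060W, chromosome VII, 610564 to 611493), the C-4 methyl sterol oxidase, had 151 and 167 CPM at 30 min and 355 and 376 CPM at 60 min and a log2 change of 1.20 (SE 0.08, adjusted p 2.3e-09). Levels at 30 and 60 min did not overlap in either gene. *ERG8* and *ERG13*, of the early mevalonate path, were the called members with the smallest changes, at 0.21 and 0.21. Without replicate 1 at 30 min 9 of the list were called higher. The call of *ERG8* was lost without replicate 1 at 30 min, replicate 1 at 60 min or replicate 2 at 60 min (log2 0.13 to 0.28, adjusted p up to 0.3) and under DESeq2 (adjusted p up to 0.065). *ERG13* also lost it without replicate 1 at 30 min or replicate 2 at 60 min (0.13 to 0.29, up to 0.27).

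The TFs Upc2 and Ecm22 bind the sterol regulatory element, searched here as TCGTATA on both strands. It was in 6 of 24 ergosterol windows (25.0%) and in 4.60% of all windows, and the 6 genes with a match, *ERG1*, *ERG13*, *ERG2*, *ERG28*, *ERG3* and *ERG8*, were among those called higher. Other members were called higher without a match, among them *ERG25* at 1.20, *ERG5* at 0.77, *ERG24* at 0.63 and *ERG11* at 0.44. The window of *ERG3* (chrXII:253461-253760, plus strand), the member with a match that changed most, held 2 matches, in capitals.
ERG3: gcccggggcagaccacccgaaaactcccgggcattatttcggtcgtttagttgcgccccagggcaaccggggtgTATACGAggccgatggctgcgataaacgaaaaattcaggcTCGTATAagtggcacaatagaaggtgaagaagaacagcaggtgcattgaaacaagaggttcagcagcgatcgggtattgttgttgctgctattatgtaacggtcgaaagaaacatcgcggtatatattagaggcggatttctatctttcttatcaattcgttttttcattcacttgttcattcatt

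General stress genes fell more often than they rose. Of 34 genes on the general stress list, 18 were called lower (52.9%, against 10.7% of all genes) and 2 higher, with a median of -0.32. *CTT1*, the cytosolic catalase, was at 143 and 124 CPM at 30 min and 80.0 and 64.1 CPM at 60 min and changed by -0.89 (SE 0.11, adjusted p 9.9e-06). *HOR7*, a small protein induced by hyperosmolarity, changed by -0.87 (SE 0.16, adjusted p 0.00058). *HSP12*, a membrane-protecting protein, was at 1939 and 1849.5 CPM at 30 min and 1958 and 1497 CPM at 60 min and did not pass the test (-0.14, adjusted p 0.42). *HSP26* (YBR072W, chromosome II, 382030 to 382674), a small heat shock chaperone, went the other way with 582 and 583 CPM at 30 min and 1131 and 1009 CPM at 60 min and a log2 change of 0.87 (SE 0.09, adjusted p 1.1e-06). Without replicate 2 at 60 min the calls lower numbered 8. The 2 calls higher became 1 without replicate 1 at 30 min, replicate 2 at 30 min or replicate 1 at 60 min and under a fit with no replicate block. The list summed to 29381 and 29510.3 CPM at 30 min and 25312 and 22285 CPM at 60 min, still above the 4874 and 5372 CPM at 0 min.

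Other stress groups were mixed. The list of trehalose and glycogen metabolism shares 6 genes with the general stress list, so calls such as that of *TPS2* are counted in both. In trehalose and glycogen metabolism 1 of 20 tested genes were called higher and 7 lower, with a median of -0.24, and without replicate 2 at 60 min 4 were called lower. *TPS2* and *TSL1*, of the trehalose synthase complex, changed by -0.87 and -0.66, and *PGM1*, a phosphoglucomutase, by 0.54. Among chaperones 9 of 25 tested genes were called higher and 6 lower, with a median of 0.02. *HSP104*, the disaggregase, and *SSE1*, a nucleotide exchange factor, changed by -0.47 (SE 0.11, adjusted p 0.0064) and -0.45 (SE 0.04, adjusted p 2.5e-07), whereas *APJ1*, a J-domain protein, rose by 0.63 (SE 0.10, adjusted p 0.00018). Among stress regulators, *NRG2*, a repressor of glucose-repressed genes, rose by 0.86 (SE 0.07, adjusted p 3.6e-08) and *PHD1*, an activator of filamentous growth, by 0.80 (SE 0.08, adjusted p 8e-07). In the proteasome 11 of 33 genes were called lower and 0 higher, with a median of -0.13. *RPN9*, a lid subunit, changed by -0.38 (SE 0.07, adjusted p 0.00046). The count for the proteasome was 3 without replicate 1 at 30 min, 6 without replicate 1 at 60 min, 5 without replicate 2 at 60 min and 7 with raw library totals, which also gave 1 called higher. The call of *TSL1* was lost without replicate 2 at 60 min (log2 -0.84 to -0.49, adjusted p up to 0.064). *HSP104* also lost it without replicate 2 at 60 min (-0.56 to -0.39, up to 0.076).

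Drug efflux genes fell in part, and nutrient genes were mixed. In drug efflux 1 of 14 tested genes were called higher and 8 lower, with a median of -0.31, and without replicate 1 at 30 min 5 were called lower. *PDR5*, the main ABC drug exporter, was at 2419 and 2254 CPM at 30 min and 1391 and 1457 CPM at 60 min, a log2 change of -0.71 (SE 0.07, adjusted p 4.3e-07). *FLR1*, an exporter of another family and the member called higher, rose by 0.41 (SE 0.09, adjusted p 0.0034). The 1 call higher became 2 under raw library totals and 0 without replicate 2 at 30 min. In sulphate and methionine metabolism *MET3*, the ATP sulphurylase, and *MET14*, the next enzyme, rose by 0.43 (SE 0.09, adjusted p 0.0022) and 0.40 (SE 0.09, adjusted p 0.0036). *STR3*, a cystathionine lyase, changed by -0.83 (SE 0.09, adjusted p 2.7e-06). *PHO84*, the high affinity phosphate transporter, was at 0.28 (SE 0.12, adjusted p 0.11). Among iron genes *FTR1*, the iron permease, and *ENB1*, an enterobactin transporter, changed by 0.48 and -0.52. The call of *FLR1* was lost without replicate 2 at 30 min (log2 0.31 to 0.49, adjusted p up to 0.08). *MET3* also lost it without replicate 1 at 60 min (0.28 to 0.58, up to 0.065). *MET14* likewise lost it without replicate 1 at 30 min or replicate 1 at 60 min (0.26 to 0.54, up to 0.099).

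Median changes of the lists of cell cycle TF targets were small, but the shares called higher exceeded that of all genes. The TFs SBF and MBF switch on genes at the G1/S transition, Hcm1 acts in S phase, and Fkh2 with Ndd1 acts at G2/M. The target lists came from the supplementary lists of the study, and those of SBF/MBF and Fkh2/Ndd1 share 8 genes. Of 134 SBF/MBF targets 27 were called higher (20.1%, against 9.76% of all genes), with a median of 0.06. Another 12 were called lower (8.96%), a share that did not exceed the 10.7% of all genes. Of 96 Hcm1 targets 33 were called higher (34.4%) and 3 lower, with a median of 0.13. Of 38 Fkh2/Ndd1 targets 14 were called higher (36.8%) and 0 lower, with a median of 0.18. Without replicate 1 at 30 min 18 Hcm1 targets were called higher and 1 lower, and 7 SBF/MBF targets were called lower. Without replicate 2 at 60 min 8 Fkh2/Ndd1 targets were called higher and 7 SBF/MBF targets lower.

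*CDC20*, the activator of the anaphase-promoting complex, was at 45.0 and 45.5 CPM at 30 min and 69.6 and 74.6 CPM at 60 min, a log2 change of 0.67 (SE 0.09, adjusted p 3.4e-05). *CLB2*, the main mitotic cyclin, and the TF gene *NDD1* rose by 0.30 (SE 0.07, adjusted p 0.0042) and 0.36 (SE 0.07, adjusted p 0.0017). *CLN1*, a G1 cyclin, was at 0.12 (SE 0.06, adjusted p 0.19), and *CLB6*, an S phase cyclin, changed by -0.69 (SE 0.19, adjusted p 0.013). *FKH1*, a forkhead TF that is among the Hcm1 targets, rose by 0.82 (SE 0.11, adjusted p 2.5e-05), and *CIK1*, a kinesin partner that pheromone also induces, by 0.73 (SE 0.08, adjusted p 3.1e-06). Of 11 histone genes 7 were called lower and 1 higher, with a median of -0.44. Since 9 of the histone genes are also SBF/MBF targets, their calls are counted in both lists. *HTA1* and *HTB2*, of histones H2A and H2B, changed by -0.65 (SE 0.09, adjusted p 2.2e-05) and -0.61 (SE 0.08, adjusted p 2e-05), while *HHO1*, the linker histone gene, rose by 0.40 (SE 0.09, adjusted p 0.0043). The forkhead site GTAAACA was in 12 of 38 Fkh2/Ndd1 windows (31.6%) and in 6.30% of all windows. The call of *CLB2* was lost without replicate 1 at 30 min or replicate 2 at 60 min (log2 0.21 to 0.38, adjusted p up to 0.1). *CLB6* also lost it without replicate 2 at 30 min or replicate 2 at 60 min (-0.92 to -0.43, up to 0.19). *HHO1* likewise lost it without replicate 1 at 30 min (0.34 to 0.46, up to 0.077).

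The remaining genes with the highest changes belong to no described list. YCL074W, a pseudogene on chromosome III at 2824 to 3750, had 4.99 and 4.07 CPM at 30 min and 14.7 and 16.6 CPM at 60 min and a log2 change of 1.76 (SE 0.30, adjusted p 0.00031). *PGU1* (YJR153W, chromosome X, 722815 to 723900), a secreted pectin-degrading enzyme, had 67.2 and 80.0 CPM at 30 min and 214 and 224 CPM at 60 min and changed by 1.58 (SE 0.07, adjusted p 2.4e-11). Levels at 60 min lay above those at 30 min in both. *RTP1*, which acts in nuclear import of RNA polymerase II, and *TRM2*, a tRNA methyltransferase, rose by 1.32 and 1.31 from mean levels of 11.5 and 11.2 CPM. *AIR1*, of the nuclear RNA surveillance machinery, rose by 1.11. *MOH1*, *RRT1* and YNL208W rose by 1.13, 1.08 and 1.06. YNL042W-B, at 1.20, overlaps a noncoding RNA gene on the same strand, so its value is uncertain. All 30 genes with the largest changes kept their call in each alternative analysis.

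The next comparison asked where the late change with active CN differed from that with CN inhibited. In FK506 cells 2533 genes (40.8%) differed between 30 and 60 min, 1428 (23.0%) higher and 1105 (17.8%) lower. Tested as an interaction, the change differed between ET and FK506 cells for 1770 genes (28.5%), with 827 (13.3%) higher and 943 (15.2%) lower in ET relative to FK506. For 429 (6.91%) the log2 difference was 1 or more in size. On raw library totals the split was 1302 and 698, and the FK506 change had 1119 higher and 1545 lower. The ET and FK506 changes share no library, and across the 6206 genes their Pearson r was 0.16. Of the 606 genes called higher in ET, 224 were called higher in FK506, which is 37.0% of the ET and 15.7% of the FK506 calls. Another 94 were called lower in FK506 (15.5% and 8.51%). Of the 666 called lower in ET, 247 were called lower in FK506 (37.1% and 22.4%) and 233 higher (35.0% and 16.3%).

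**Figure D4:**
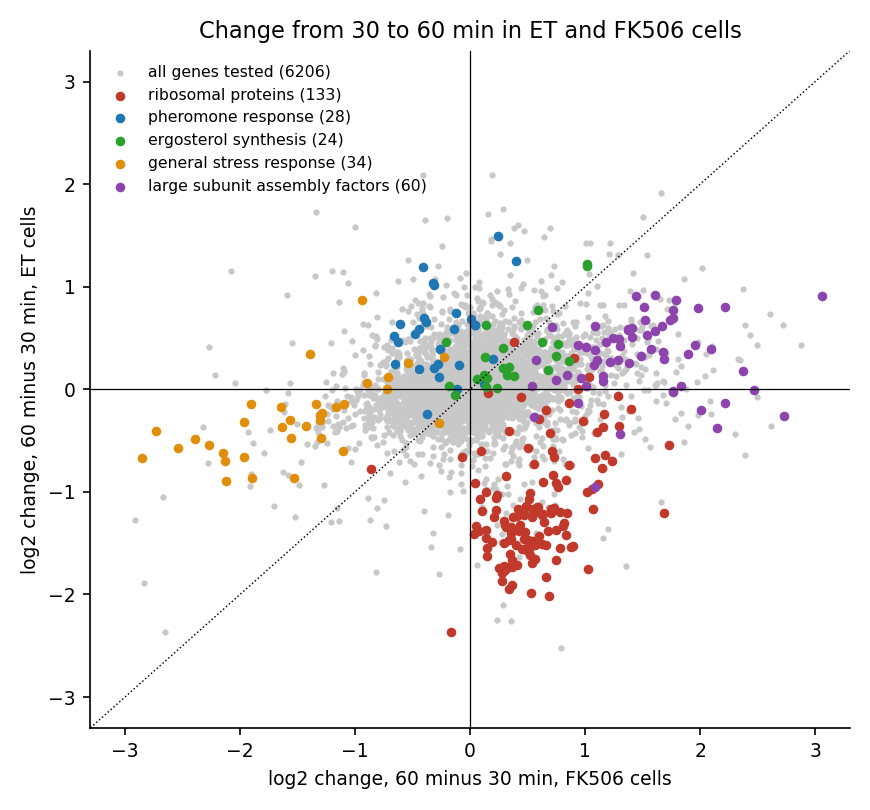
Log2 change from 30 to 60 min in ET cells (vertical axis) against that in FK506 cells (horizontal axis) for the 6206 genes tested, with gene lists in colour and a dotted line of equal change. Ribosomal protein genes lie at the lower right, with medians of -1.24 in ET and 0.53 in FK506, and stress genes lie to the left, with a FK506 median of -1.48.

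Ribosomal protein genes moved in opposite directions. In FK506 cells 119 of 133 were called higher and 1 lower, with a median of 0.53, and the difference was called lower in ET for 127. Summed levels in FK506 cells were 50861 and 47632 CPM at 30 min and 69699 and 68262 CPM at 60 min. *RPS3* had 848 and 796 CPM at 30 min and 1319.9 and 1329 CPM at 60 min in FK506 cells, and its change differed by -2.70 (SE 0.09, adjusted p 1.7e-12). *RPS26B* and *RPS17B* differed by -2.89 and -2.77. Translation factors (31 of 34 called lower in ET relative to FK506), amino acid synthesis genes (39 of 49) and histone genes (8 of 11) were on the same side.

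Assembly factors rose in FK506 cells. All 60 large subunit factors and 40 of 41 processome genes were called higher there, with medians of 1.43 and 1.33. The difference was called for 42 and 29 of them, as lower in ET. *NOP7*, a large subunit factor, was at 23.4 and 19.1 CPM at 30 min and 15.5 and 20.1 CPM at 60 min in ET and 19.1 and 29.2 CPM at 30 min and 147 and 168 CPM at 60 min in FK506, a difference of -2.99 (SE 0.34, adjusted p 3.2e-06). *RKI1*, a pentose phosphate enzyme, *URA7*, the CTP synthase, *FPR4*, a nuclear proline isomerase, and *RPA135*, a subunit of RNA polymerase I, differed by -3.02, -2.98, -2.76 and -2.74. The PAC element GCGATGAG, a hallmark of assembly gene promoters, was in 27 of 60 windows of large subunit factors (45.0%) and in 3.57% of all windows.

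General stress genes fell further in FK506 cells than in ET cells. Of 34 general stress genes 31 were called lower in FK506 and 0 higher, with a median of -1.48, and the difference was called higher in ET for 32. *DDR2*, a multistress response gene, was at 53.0 and 48.4 CPM at 30 min and 42.7 and 33.9 CPM at 60 min in ET and 43.8 and 25.9 CPM at 30 min and 6.54 and 3.82 CPM at 60 min in FK506, a difference of 2.32 (SE 0.29, adjusted p 8.8e-06). *RTC3*, *MSC1*, *SPI1* and *TFS1* differed by 2.17, 1.97, 1.91 and 1.76. *FMP16*, a mitochondrial protein gene, and *PHM8*, a nucleotidase, had ET changes of 0.14 and -0.00 that did not pass the test and differences of 2.36 and 1.77. *HSP26* rose in ET and fell in FK506, a difference of 1.82 (SE 0.13, adjusted p 9.6e-09). The stress response element AGGGG was in 31 of 34 windows of the list (91.2%) and in 23.8% of all windows.

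Mating genes rose in ET cells and mostly fell in FK506 cells. In FK506 cells 2 of 28 pheromone genes were called higher and 17 lower, with a median of -0.30, and the difference was called higher in ET for 24. The list summed to 12044.5 and 12086 CPM at 30 min and 9313 and 9643 CPM at 60 min in FK506 cells. Its level at 30 min was thus already above the 9449 and 10486 CPM of ET cells. *FIG2* had 2382 and 2585 CPM at 30 min and 1678 and 2068 CPM at 60 min in FK506 cells, and the difference was 1.60 (SE 0.10, adjusted p 1.1e-09). *FIG1* had 288 and 283 CPM at 30 min and 366 and 313 CPM at 60 min there, above the ET cells at 30 min and below them at 60 min, with a difference of 1.25 (SE 0.12, adjusted p 4.1e-07). For *FIG1* the pre-treatments therefore did not overlap at the start of the interval either. Ergosterol and glucan synthase genes did not follow this pattern. Of 24 ergosterol genes 17 were called higher in FK506, and the difference was called for 2 higher and 5 lower. *GSC2* was at 155 and 194 CPM at 30 min and 429.9 and 564 CPM at 60 min in FK506. Its change differed between the pre-treatments by 0.18 (SE 0.11, adjusted p 0.27), which did not pass the test and does not show that the changes were equal.

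**Figure D5:**
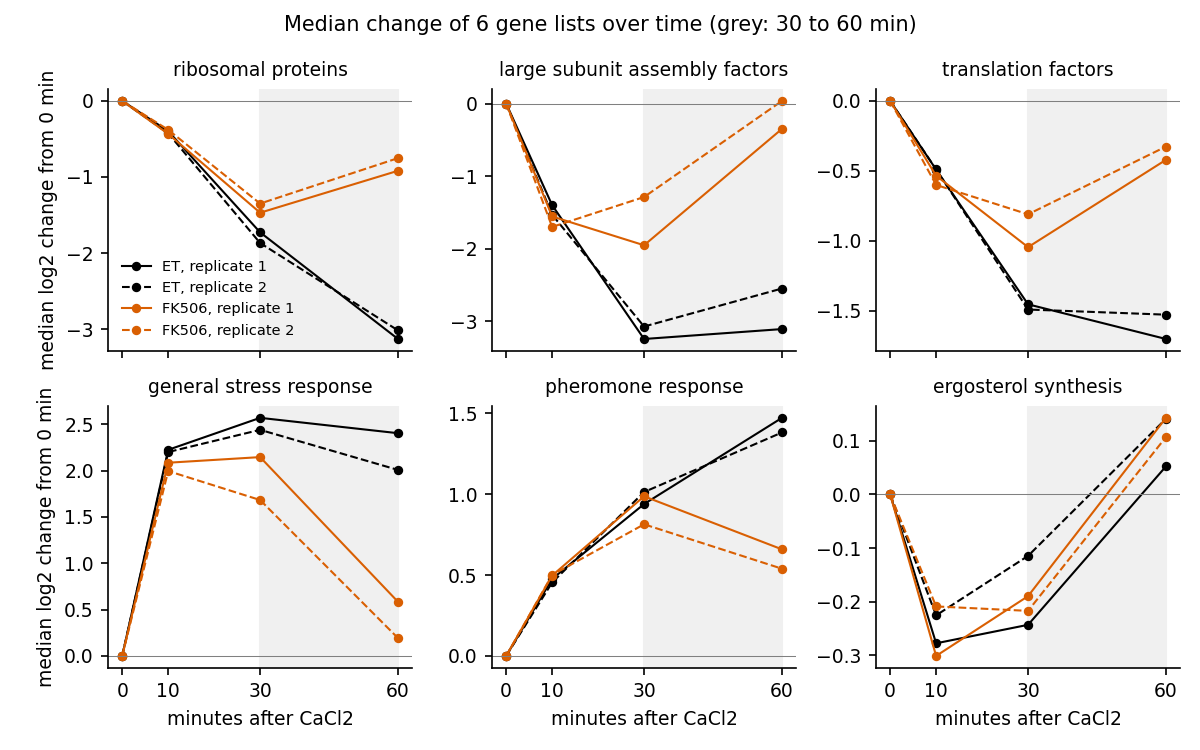
Median log2 change from 0 min (vertical axis, pseudocount 0.5 CPM) of 6 gene lists against minutes after CaCl2 (horizontal axis), with 1 line per replicate in ET and in FK506 cells and grey shading from 30 to 60 min. In ET cells ribosomal proteins reach -3.13 and -3.02 at 60 min, while in FK506 cells the line turns upwards after 30 min.

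The late change was set beside the first 10 min of stress in the same cells, with which it shares no library. From 0 to 10 min 3628 genes (58.5%) were called in ET cells, 1652 (26.6%) higher and 1976 (31.8%) lower. The Pearson r between both changes across genes was -0.14. Of the 606 genes called higher from 30 to 60 min, 240 had been called lower at 10 min, or 39.6% of the late and 12.1% of the early calls, and 165 higher (27.2% and 9.99%). Of the 666 called lower, 281 had been called lower at 10 min (42.2% and 14.2%) and 240 higher (36.0% and 14.5%). General stress genes had a median of 2.20 in the first 10 min and -0.32 from 30 to 60 min. Ribosomal proteins had medians of -0.41 and -1.24 over these intervals. *GSC2* and *FIG1* had values of -0.03 and 0.21 in the first 10 min.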

How the data were processed

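RNA-seq was performed on 16 libraries from 8 groups of 2, of which 4 libraries form the comparison described. Total RNA was depleted of ribosomal RNA and made into strand-specific, single-end libraries. Values are unscaled read counts per gene, as deposited by the authors. The authors aligned reads with TopHat2 (version 2.1.1 per the submitters' processing notes). Their methods name HTSeq as the counter, whereas the processing notes name featureCounts and Subread 1.5.3 with build sacCer3, so the counter and its strand setting were not settled and overlapping genes were held uncertain. There are 7126 features in all. In the RefSeq R64 annotation, whose coordinates (from 1) are given, 6048 were found under their systematic name, 114 under a symbol and 964 under neither.

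Groups and replicate numbers came from the labels. Counts were filtered with filterByExpr by group (default minimum of 10 counts). The 6206 genes that passed were scaled with TMM factors. limma voom 3.58.1 was fitted to the 16 libraries, with edgeR 4.0.16 for scaling and R 4.3.3, with terms for group and replicate number and a correlation within a time course from duplicateCorrelation (-0.12). The study's model has a batch term, for which the replicate number stood in. The fit left 7 residual degrees of freedom. Libraries with the same number from 30 and 60 min deviated together with r = 0.13. Tests were two-sided moderated tests with Benjamini-Hochberg adjustment over all genes, and adjusted p values under 0.05 were called. An exact permutation test of 2 against 2 libraries cannot go below 0.333, and the fit therefore borrowed its spread from all libraries. Values are CPM after TMM scaling per library, or mean ± SD of 2 replicates. The p-values rest on the spread that is left over all 16 libraries once group and replicate number are fitted. All libraries came from duplicate time courses of 1 strain.

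Named genes were the 15 highest and 15 lowest changes among genes that were called, averaged 100 counts or more and moved the same way in both replicates, the 8 highest and 8 lowest differences between ET and FK506, the 2 highest and 2 lowest called members of each list, and a short set of reference genes. The members and lists were chosen with earlier results of these data known. Apart from the reference genes, named genes were picked by their changes, so a lack of overlap between their groups adds no support. Paralog pairs and the genes whose promoter windows are printed were chosen after their values were seen. Promoter windows ran from 400 to 101 bases before the start codon (5744 of 5762 protein-coding genes tested) and were searched for 6 motifs, whose matches do not overlap within a printed window. Alternatives were edgeR's quasi-likelihood test, DESeq2 1.42.0, other scalings, filters, model terms and sets of libraries, and a size threshold.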

Additional observations from a re-analysis of the deposited data

Results flagged for a closer look

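Results are listed here because the change from 30 to 60 min differed between ET and FK506 cells. By the test of the difference, in limma voom with Benjamini-Hochberg adjustment, 1770 genes differed. Among the named genes that rose in ET cells, the difference in log2 change (ET minus FK506) was 1.47 for YCL074W, 0.88 for *PGU1*, 1.25 for *FIG1*, 0.85 for *PRM3* and 1.60 for *FIG2*. It was 1.48 for YNL042W-B, 1.17 for *MOH1*, 1.38 for *RRT1* and 0.44 for YNL208W.

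Among those that fell in ET cells, it was -2.20 for *RPL9A*, -2.39 for *SSB1*, -2.70 for *RPS3*, -2.52 for *RPL21A*, -2.28 for *RPL24A* and -2.27 for *RPL5*. It was -2.15 for *RPS7A*, -2.49 for *RPS0B*, -2.07 for *RPL19A*, -2.07 for *RPS1B* and -2.77 for *RPS17B*. It was also -2.00 for *RPL32*, -2.07 for *RPP2B*, -2.10 for *RPL25* and -0.97 for *ANB1*.

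The highest differences were 2.36 for *FMP16*, 2.32 for *DDR2*, 2.17 for *RTC3*, 1.97 for *MSC1*, 1.91 for *SPI1*, 1.82 for *HSP26*, 1.77 for *PHM8* and 1.76 for *TFS1*. Apart from the ribosomal protein genes *RPS3* and *RPS17B* given above, the lowest were -3.02 for *RKI1*, -2.99 for *NOP7*, -2.98 for *URA7*, -2.89 for *RPS26B*, -2.76 for *FPR4* and -2.74 for *RPA135*.

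In 15 lists the median change had opposite signs in ET and FK506 cells in both replicates. The median difference (ET minus FK506) was -1.77 for ribosomal proteins, -0.78 for translation factors, -0.57 for amino acid synthesis, -0.60 for histones and -0.43 for purine synthesis. It was 0.79 for the pheromone response, 0.65 for MATa-specific genes, 0.48 for gluconeogenesis, glyoxylate and fatty acid oxidation and 0.36 for the TCA cycle. Smaller differences were 0.29 for meiosis and sporulation, 0.28 for sulphate and methionine, 0.28 for Fkh2/Ndd1 targets, 0.25 for chaperones, 0.15 for oxidative phosphorylation and 0.13 for calcium transport and calcineurin. In several of these lists a median lay close to 0. The difference between medians was not tested.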

How the results depend on the processing

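The number of genes that differed between 30 and 60 min in ET cells was 1272. It was 1377 with edgeR's quasi-likelihood test, 1080 with DESeq2 and 1222 without the replicate block, and between 1243 and 1637 under the other scalings, filters, model terms and library sets. With 1 library left out it ranged from 742 to 984, the lowest without replicate 1 at 30 min. The difference between ET and FK506 cells, 1770 genes, was 1749 without the replicate block and ranged from 1333 to 1812 with 1 library left out. When a size of 1 on the log2 scale was also asked for, 156 genes were called in ET, 429 for the difference, 361 in FK506 and 743 from 0 to 10 min in ET, the last pair chosen after seeing the data. Raw library totals moved the median of all genes by 0.04 in ET and changed the split of calls to 748 higher and 524 lower. Of 175 named genes called, 98 kept the call in every alternative run, 76 lost it with a library left out and 30 under another setting. *PHM8*, at -0.00, changed sign with raw library totals (0.031) and ranged from -0.107 to 0.091 with 1 library left out, and it never passed the threshold. The replicate block changed the counts of calls over all genes by less than 1.5 times, and list counts that it moved further are given beside the lists. Depth limits genes with a mean under 100 counts, whose median SE was 0.34, and 2 libraries per group limit the rest.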

Other observations

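Further gene groups were counted in the ET change from 30 to 60 min, beside the 9.76% of all genes called higher and 10.7% called lower. In glycerol metabolism and osmotic stress 3 of 17 tested genes were called higher and 3 lower, with a median of 0.11, among them *GPP1*, the glycerol phosphatase, at -0.28, and *DAK1*, a dihydroxyacetone kinase, at 0.24. The 3 calls higher became 1 without replicate 1 at 30 min or replicate 2 at 30 min and 0 without replicate 1 at 60 min. The 3 calls lower became 1 without replicate 2 at 30 min or replicate 2 at 60 min and under raw library totals or a fit with no replicate block. The median was between -0.05 and 0.11 with 1 library left out. Of antioxidant enzymes 7 of 25 were called lower and 2 higher, with *SOD1*, the cytosolic superoxide dismutase, at -0.32 and *GRX1*, a glutaredoxin, at 0.29. The calls lower were 3 without replicate 1 at 30 min, 4 without replicate 1 at 60 min, 3 without replicate 2 at 60 min, 4 with raw library totals and 2 without the replicate block. The 2 calls higher became 0 without replicate 1 at 30 min or replicate 1 at 60 min and under a fit with no replicate block and 1 without replicate 2 at 60 min. The call of *GPP1* was lost without replicate 1 at 60 min (log2 -0.33 to -0.23, adjusted p up to 0.053). *DAK1* also lost it without replicate 1 at 30 min or replicate 1 at 60 min (0.18 to 0.29, up to 0.11). *SOD1* likewise lost it under a fit with no replicate block (adjusted p up to 0.069). *GRX1* also lost it without replicate 1 at 30 min or replicate 1 at 60 min (0.20 to 0.36, up to 0.18) and under a fit with no replicate block (adjusted p up to 0.07).

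In the TCA cycle 3 of 16 tested genes were called higher and 2 lower, with a median of 0.06, with *SDH4*, a succinate dehydrogenase subunit, at 0.34 and *IDH2*, an isocitrate dehydrogenase subunit, at -0.28. The 3 calls higher became 1 without any 1 of the 4 libraries. The 2 calls lower became 1 without replicate 1 at 60 min and under raw library totals or a fit with no replicate block and 0 without replicate 1 at 30 min, replicate 2 at 30 min or replicate 2 at 60 min. In gluconeogenesis, the glyoxylate cycle and fatty acid oxidation 3 of 20 tested genes were called higher and 1 lower, with a median of 0.21, with *POT1*, the peroxisomal thiolase, at 0.63 (SE 0.12, adjusted p 0.00074). The 3 calls higher became 6 under raw library totals and 5 under a fit with no replicate block. The 1 call lower became 0 without replicate 2 at 30 min and 2 without replicate 1 at 60 min. The call of *SDH4* was lost without replicate 2 at 30 min (log2 0.30 to 0.38, adjusted p up to 0.061). *IDH2* also lost it without any 1 of the 4 libraries (-0.35 to -0.22, up to 0.25) and under a fit with no replicate block, a fit with time course as a fixed term, raw library totals or no filter on low counts (adjusted p up to 0.07).

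Of 25 autophagy genes 2 were called higher, *ATG39*, a receptor for autophagy of the nucleus, at 0.65 (SE 0.11, adjusted p 0.0003), and *ATG31* at 0.46, and *ATG18* was called lower at -0.25. Among nitrogen source permeases and regulators 3 of 18 tested genes were called higher and 0 lower, with a median of 0.14, with *DAL5*, an allantoate permease, at 0.53 and *MEP3*, an ammonium permease, at 0.45. The 3 calls higher became 1 without replicate 1 at 30 min or replicate 1 at 60 min. *RRN3*, an initiation factor of RNA polymerase I, and *RPC25*, a subunit of RNA polymerase III, were the called members of their lists, at 0.30 and 0.73. Of 73 snoRNA genes tested 0 were called higher and 1 lower, and of 16 pseudogenes 3 were called higher. Among genes of the Mcm cluster 7 of 37 tested genes were called higher and 4 lower, with a median of 0.06, with *MCM7*, a subunit of the replicative helicase, at 0.32. The 4 calls lower became 2 without replicate 1 at 30 min or replicate 2 at 60 min. Its calls higher were 1 without replicate 1 at 30 min, 4 without replicate 1 at 60 min and 1 without replicate 2 at 60 min. The call of *ATG18* was lost without replicate 1 at 30 min, replicate 1 at 60 min or replicate 2 at 60 min (log2 -0.31 to -0.20, adjusted p up to 0.23) and under DESeq2 or raw library totals (adjusted p up to 0.072). *DAL5* also lost it without replicate 1 at 30 min or replicate 1 at 60 min (0.46 to 0.60, up to 0.071). *RRN3* likewise lost it without replicate 1 at 30 min, replicate 2 at 30 min or replicate 2 at 60 min (0.19 to 0.40, up to 0.36) and under DESeq2 or no filter on low counts (adjusted p up to 0.083). *RPC25* also lost it without replicate 1 at 30 min, replicate 2 at 30 min or replicate 2 at 60 min (0.59 to 0.86, up to 0.12). *MCM7* likewise lost it without replicate 1 at 30 min or replicate 2 at 60 min (0.23 to 0.41, up to 0.18).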
